A study of Mus musculus with 8 samples.

Results

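The p38 kinase cascade was followed at the transcript level through 10 genes, Map2k6, Map2k3, Map2k4, Map3k5, Mapk11, Mapk12, Mapk13, Mapk14, Mapkapk2 and Dusp1, out of 19935 genes measured on Affymetrix arrays of mouse liver. Each gene was found by its symbol in the array annotation and was represented by 1 probe set that named it alone. The set was chosen by the measured difference of Map2k6, which was among the most lowered genes in the comparison of both genotypes. For that reason the differences of the 10 genes between genotypes are given as a description, without p-values, and nothing is read from how many of them passed a threshold. The 4 NS-DADm samples came from mice in which both corepressors, NCOR and SMRT, carry mutations in the deacetylase-activating domain, through which they switch on the histone deacetylase HDAC3. The 4 other samples were wild type (WT). All samples were livers of male C57Bl/6 mice aged 10 to 12 weeks, fed normal chow, kept in a 12 h light and 12 h dark cycle and sampled at zeitgeber time 10. The labels name no promoter or cell type that limits the mutations, and they leave unstated whether the arrays came from different animals. Errors and p-values therefore measure only the spread between these arrays, which may be technical.

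In the p38 cascade, stress and cytokine signals activate a first tier of kinases such as ASK1, the product of Map3k5. These activate the dual-specificity kinases MKK3 and MKK6, made from Map2k3 and Map2k6, and MKK4, made from Map2k4, which also serves the JNK branch. They in turn phosphorylate the p38 kinases, whose alpha, beta, gamma and delta forms come from Mapk14, Mapk11, Mapk12 and Mapk13. Active p38 acts on kinases such as MK2, made from Mapkapk2, and is switched off by phosphatases such as DUSP1. Signalling runs through phosphorylation, which transcript arrays do not measure. In liver the pathway is known for its roles in the acute stress response and in the control of gluconeogenesis.

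The DNA upstream of Map2k6 is shown because this was the member that differed between genotypes, and that of Map2k3 because it encodes the closest relative of MKK6 and its groups overlapped. RefSeq's promoter table for GRCm38.p6 held all 10 genes with 14 start sites, of which 3 belong to Map2k6, and the 250 bases before each start were read 5′ to 3′. Capitals mark the hexamer AGGTCA, the core to which many nuclear receptors bind, and the box CCAAT, each on either strand (TGACCT and ATTGG on the other).
Map2k6 start 1, chr11:110398852-110399101, + strand: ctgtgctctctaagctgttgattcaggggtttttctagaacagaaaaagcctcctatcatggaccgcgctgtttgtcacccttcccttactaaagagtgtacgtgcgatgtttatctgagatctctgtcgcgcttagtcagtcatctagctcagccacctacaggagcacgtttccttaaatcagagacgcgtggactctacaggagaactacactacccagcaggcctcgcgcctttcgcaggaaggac
Map2k6 start 2, chr11:110478265-110478514, + strand: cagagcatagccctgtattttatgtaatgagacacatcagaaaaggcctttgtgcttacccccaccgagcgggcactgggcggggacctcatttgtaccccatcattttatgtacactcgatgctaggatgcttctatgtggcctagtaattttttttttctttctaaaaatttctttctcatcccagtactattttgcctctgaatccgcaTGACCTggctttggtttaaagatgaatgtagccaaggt
Map2k6 start 3, chr11:110479090-110479339, + strand: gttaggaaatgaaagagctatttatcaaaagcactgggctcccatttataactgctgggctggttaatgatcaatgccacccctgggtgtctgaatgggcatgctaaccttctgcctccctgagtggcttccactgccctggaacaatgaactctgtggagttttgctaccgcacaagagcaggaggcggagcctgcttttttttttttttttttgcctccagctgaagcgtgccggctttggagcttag
Map2k3, chr11:60931804-60932053, + strand: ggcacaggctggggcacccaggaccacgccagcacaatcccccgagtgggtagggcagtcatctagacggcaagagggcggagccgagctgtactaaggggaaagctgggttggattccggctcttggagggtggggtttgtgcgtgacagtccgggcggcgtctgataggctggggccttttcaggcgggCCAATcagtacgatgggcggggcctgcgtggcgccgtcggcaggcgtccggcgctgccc
The hexamer lay at bases 213 to 218 of the window of Map2k6 start 2 and was not found in the windows of starts 1 and 3 or of Map2k3. Of the 14 windows 2 held it, 1 of Map2k6 and 1 of Map2k4, against 14% of all 32851 windows of this length in the table. CCAAT was found in 3 of the 14, those of Map2k3, Map2k4 and Mapk14, against 33.8% of all windows. An E-box (CACGTG), an AP-1 site (TGACTCA) and a CRE (TGACGTCA) were searched for too, and no window of Map2k6 or Map2k3 held any. The E-box was in 2 of the 14 windows (6.02% of all), the AP-1 site in 0 (4.46%) and the CRE in 1 (1.55%). No marked motif overlapped another in these windows. The single Map2k6 probe set gives 1 value for the gene and does not separate transcripts from the 3 starts.

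The 8 arrays had medians of 7.39 to 7.50 (log2), and any pair of them had a correlation over probe sets of 0.993 to 0.998. The liver label was borne out by 9 hepatocyte markers, whose mean log2 intensity was 13.31 to 13.32 on WT arrays and 13.26 to 13.30 on NS-DADm arrays. NS-DADm replicates 1 and 4 differed in the genes of other cell types. NS-DADm replicate 1 had the lowest mean of all 8 arrays for 14 sinusoidal endothelial markers (9.06), 9 stellate cell markers (8.77) and 12 Kupffer cell markers (8.55). For the Kupffer cell markers WT replicate 3 was close to it (8.62). NS-DADm replicate 4 had the highest mean of all 8 arrays for the stellate cell (9.49) and Kupffer cell markers (9.45).

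Map2k6 (Entrez Gene 26399) was lower in every NS-DADm liver. On the WT arrays its log2 intensity was 8.75, 8.98, 8.97 and 9.02 in replicates 1 to 4. On the NS-DADm arrays it was 7.19, 7.81, 7.99 and 7.95. The groups did not overlap, since the lowest WT value lay 0.76 above the highest NS-DADm value, and NS-DADm replicate 1 was the lowest array by a wide margin. The group means were 8.93 ± 0.12 in WT and 7.74 ± 0.37 in NS-DADm (SD, n = 4 each), a log2 difference of -1.19 (SE 0.15, 95% confidence interval -1.53 to -0.85), which is a 2.28-fold lower level. This was the fourth most negative of all 19935 genes. Without NS-DADm replicate 1 the difference was -1.01, or 2.01-fold lower, and it was -1.27 to -1.16 when any other array was left out. These are the values for which Map2k6 was chosen.

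**Figure D1:**
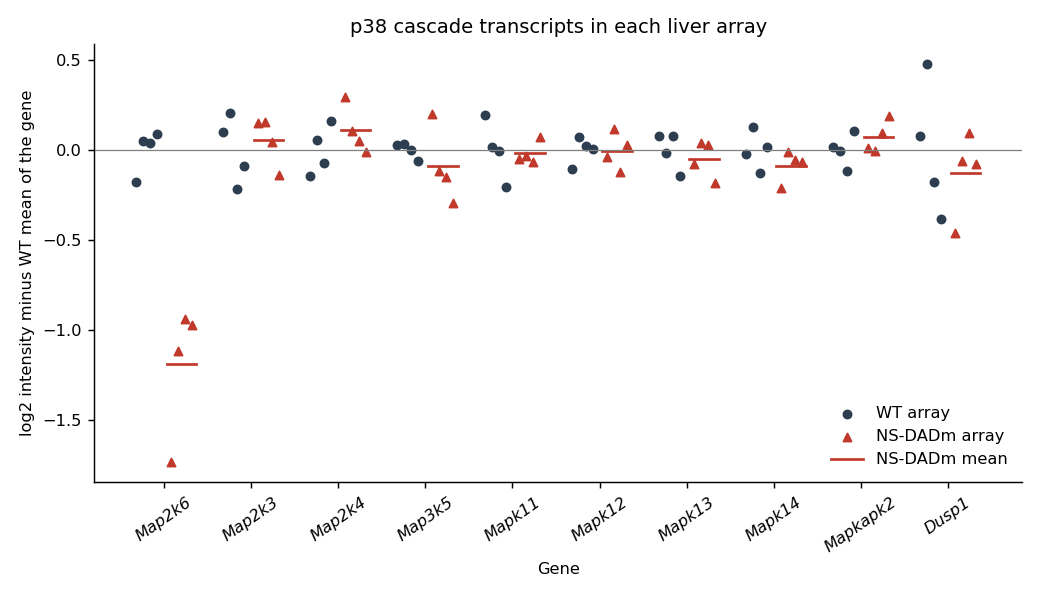
Log2 intensity of each of the 10 p38 cascade genes on every array, as the distance from that gene's own WT mean; circles are the 4 WT arrays, triangles the 4 NS-DADm arrays, each in replicate order, and bars the NS-DADm mean. The 4 triangles of Map2k6 lie below all of its circles, while circles and triangles overlap in the other 9 genes.

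Markers of other liver cells moved in the same arrays. All 14 sinusoidal endothelial markers had a log2 difference below 0, as did 55.7% of all genes, with a median of -0.28, and 1 of them, the nuclease gene Dnase1l3, passed an adjusted p of 0.05 over all genes. An unadjusted p under 0.05 was reached by 9 of the 14 (64.3%), all lower, beside 9.33% of all genes. Their mean log2 intensity ran from 9.57 to 9.74 on WT arrays, and was 9.06, 9.31, 9.38 and 9.67 in NS-DADm replicates 1 to 4. The endothelial mean was below the WT range in 3 NS-DADm arrays and inside it in replicate 4. Map2k6 was below the WT range in all 4 NS-DADm arrays, at 7.95 in replicate 4. The median of these markers was -0.20 when NS-DADm replicate 1 was left out and -0.38 when replicate 4 of that group was.

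The 9 stellate cell markers also all lay below 0, with a median of -0.15. None passed the test, and 3 (33.3%) had an unadjusted p under 0.05, beside 9.33% of all genes. Their mean was 9.14 to 9.39 on WT arrays and 8.77 to 9.49 on NS-DADm arrays, with replicate 4 the highest of all 8 arrays. Without NS-DADm replicate 1 the median was -0.05. The 12 Kupffer cell markers had a median of 0.11 with no settled direction: leaving out NS-DADm replicate 1 gave 0.26, leaving out replicate 4 of that group gave -0.09, and leaving out WT replicate 3 gave -0.02. Their mean was 8.62 to 9.22 on WT and 8.55 to 9.45 on NS-DADm arrays. In skeletal muscle, a tissue rich in MKK6 and p38 gamma, 7 marker genes had a mean of 6.94 to 7.16 on WT and 7.01 to 7.08 on NS-DADm arrays. The files carry no detection calls, so no marker could be set at 0. In bulk liver, fewer cells of a type and less RNA per cell cannot be told apart, and the part of these cells in the Map2k6 value was not tested.

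**Figure D2:**
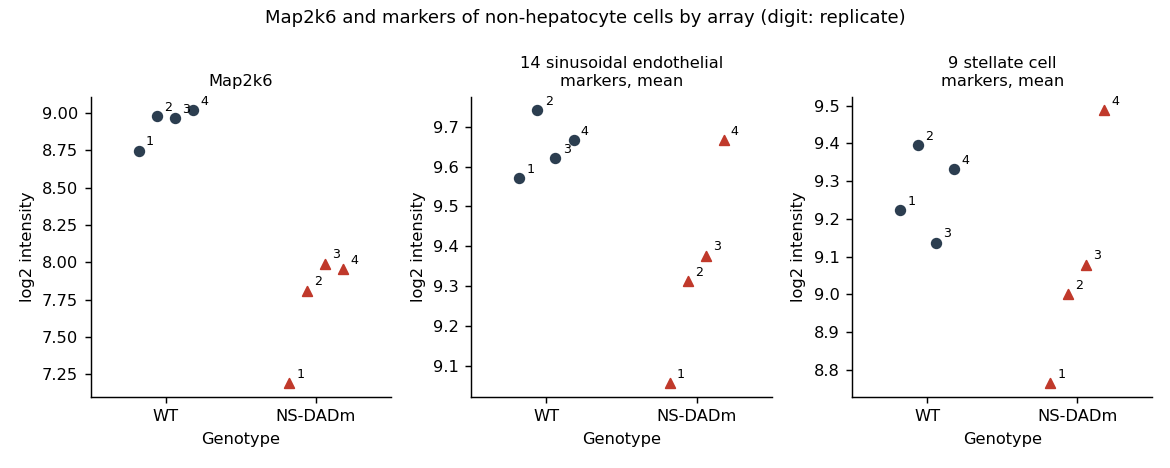
Log2 intensity of Map2k6, and the mean log2 intensity of 14 sinusoidal endothelial and 9 stellate cell markers, on each array; circles are WT, triangles NS-DADm, and the digit beside a point is the replicate number. NS-DADm replicate 1 is lowest in all 3 panels. NS-DADm replicate 4 lies within or above the WT range for both marker lists and below it for Map2k6. The part of these cells in the Map2k6 value was not tested.

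The other kinases of the same tier did not share the Map2k6 difference. Map2k3, which encodes MKK3, was at 10.41, 10.52, 10.10 and 10.22 on WT arrays and at 10.47, 10.47, 10.36 and 10.18 on NS-DADm arrays. Its groups overlapped, with a log2 difference of 0.05 (SE 0.099, 95% confidence interval -0.17 to 0.27). With any 1 array left out it stayed between -0.02 (without WT replicate 3) and 0.12. Map2k4, which encodes MKK4, was at 9.82, 10.02, 9.89 and 10.13 on WT arrays and at 10.26, 10.07, 10.02 and 9.96 on NS-DADm arrays. Its groups overlapped too, and its difference was 0.11 (95% confidence interval -0.08 to 0.30), the highest of the 10 genes. That value was 0.05 without NS-DADm replicate 1, its highest array, and 0.06 without WT replicate 1.

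Above this tier, Map3k5, the ASK1 gene, was at 10.28, 10.29, 10.25 and 10.19 on WT arrays and at 10.45, 10.14, 10.11 and 9.96 on NS-DADm arrays. The NS-DADm arrays lay on either side of the WT arrays, with replicate 1 the highest and replicate 4 the lowest of all 8. The spread was 0.04 (SD) in WT and 0.21 in NS-DADm, and the difference of means was -0.09 (95% confidence interval -0.29 to 0.11). It was -0.19 without NS-DADm replicate 1 and -0.02 when replicate 4 of that group was left out.

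The 4 p38 genes were close to level between genotypes. Mapk14, which encodes p38 alpha, the main form in liver, was at 10.59, 10.74, 10.49 and 10.63 on WT arrays and at 10.40, 10.60, 10.55 and 10.54 on NS-DADm arrays. These values overlapped, with a difference of -0.09 (SE 0.069, 95% confidence interval -0.24 to 0.07), or -0.04 without NS-DADm replicate 1 or WT replicate 2. Mapk11, the p38 beta gene, ran from 7.07 to 7.47 in WT and from 7.21 to 7.35 in NS-DADm, a difference of -0.02 (-0.09 to 0.05 with 1 array left out). Mapk12, the p38 gamma gene, ran from 7.83 to 8.005 in WT and from 7.81 to 8.05 in NS-DADm, with a difference of -0.0032 (95% confidence interval -0.15 to 0.14), or -0.04 to 0.04 with 1 array left out. Mapk13, the p38 delta gene, ran from 7.34 to 7.56 in WT and from 7.30 to 7.52 in NS-DADm, a difference of -0.05 (-0.10 to -0.0028 with 1 array left out). The signals of Mapk11 and Mapk13 were below the median gene mean of 7.59. RMA values can compress differences at low signals, and where this begins in these data was not tested. These 4 genes form 2 chromosomal pairs: in the gene table Mapk11 and Mapk12 have 0 genes between them, and Mapk13 and Mapk14 have 1.

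Below p38, Mapkapk2, the MK2 gene, was at 10.32, 10.30, 10.19 and 10.41 on WT arrays and at 10.32, 10.31, 10.40 and 10.50 on NS-DADm arrays. The groups overlapped, at a difference of 0.07 (95% confidence interval -0.07 to 0.22), or 0.03 to 0.11 with 1 array left out. Dusp1, an immediate-early gene whose phosphatase switches p38 and JNK off, varied most among the 10. It was at 11.11, 11.51, 10.86 and 10.65 on WT arrays and at 10.58, 10.97, 11.13 and 10.96 on NS-DADm arrays. Its groups overlapped widely, with WT replicate 2 the highest array and NS-DADm replicate 1 the lowest. The difference was -0.13 (SE 0.17, 95% confidence interval -0.51 to 0.25), and it was 0.03 without WT replicate 2 and -0.02 without NS-DADm replicate 1. The spread of Dusp1 within groups was 0.31 (pooled SD), more than in 98.3% of genes, and that of Map2k6, 0.28, more than in 97.6%.

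Of the 10 genes, 1 had groups that did not overlap, where 5.63% of all genes did. The same gene, Map2k6, was the 1 of 10 past an adjusted p of 0.05 in limma's moderated test, where 0.271% of all genes passed. Since that contrast chose it, nothing is read from either count, and without WT replicate 2 or WT replicate 3 no member passed. For the 9 other genes the differences ran from -0.13 to 0.11, against a median absolute difference of 0.05 over all genes. For 8 of them, all but Dusp1, the 95% confidence intervals lay between -0.29 and 0.30, a range of 0.816 to 1.23 times the WT level. A difference of the size of Map2k6 lies outside the interval of each of the 9, whereas smaller differences within those intervals could not be detected with 4 arrays a group.

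**Figure D3:**
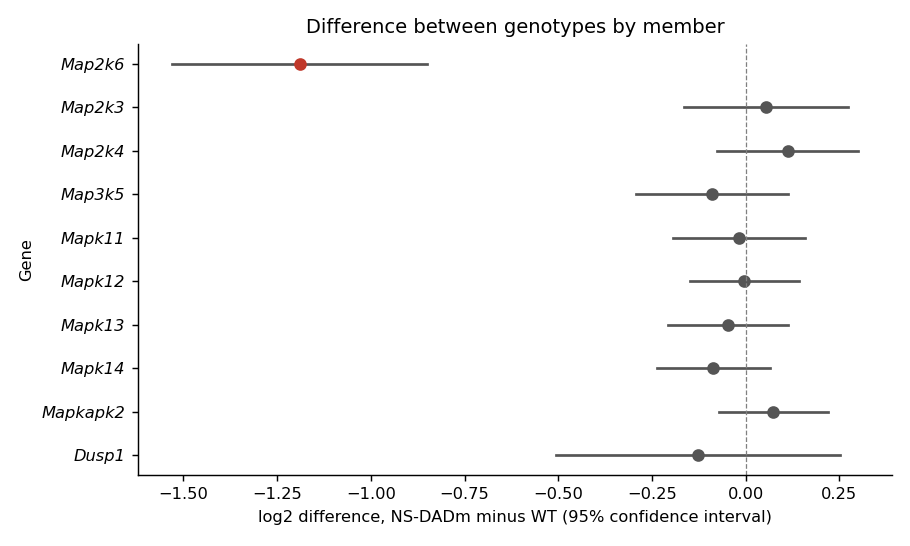
Log2 difference, NS-DADm minus WT, of each p38 cascade gene with its 95% confidence interval from the fit over all genes; the coloured point marks the gene whose groups did not overlap. Map2k6 lies at -1.19, and the intervals of the other 9 genes include 0.

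The genes whose pattern over the 8 arrays was closest to that of Map2k6 were sought by the root mean square difference of mean-centred log2 values, in which 0 would mean an identical pattern. The median gene was 0.65 away, and the other 9 members were 0.59 (Mapk14) to 0.72 (Map2k4) away. The closest was Ppp1r3c, which encodes a subunit that targets a phosphatase to glycogen, at 0.22. Next were Pcp4l1 (0.248), Nox4 (0.249), which encodes a hydrogen peroxide-producing NADPH oxidase, Tmc7 (0.268), of a family of transmembrane channel-like proteins, and Bcl6 (0.269), a transcriptional repressor that itself recruits corepressors. All 5 were lower in every NS-DADm array than in any WT array, which this measure favours because the genotype difference makes up most of the Map2k6 pattern.

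Ppp1r3c was at 9.48, 9.51, 9.66 and 9.25 on WT arrays and at 7.68, 8.04, 8.72 and 8.82 on NS-DADm arrays. Bcl6 was at 9.18, 9.13, 9.67 and 8.96 on WT arrays and at 7.83, 8.46, 8.39 and 8.71 on NS-DADm arrays. In Ppp1r3c, Pcp4l1, Tmc7 and Bcl6, as in Map2k6, NS-DADm replicate 1 was the lowest of the 8 arrays, whereas in Nox4 it was not. Likeness to a gene chosen by this contrast also favours low p-values in it. The calls of these 5 genes are therefore given as description, and nothing is read from them. Of the 5, Nox4 (log2 difference -0.95, adjusted p = 0.00364) and Pcp4l1 (-0.81, adjusted p = 0.013) passed limma's test over all genes, both lower in NS-DADm. The other 3 did not pass, with differences of -1.16 for Ppp1r3c (adjusted p = 0.0741), -0.86 for Tmc7 (0.0665) and -0.89 for Bcl6 (0.11). These 3 passed without NS-DADm replicate 4 (adjusted p = 0.0191, 0.00882 and 0.046) and with array weights (0.0377, 0.0258 and 0.0448), and without WT replicate 2 Pcp4l1 did not (0.0807).

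**Figure D4:**
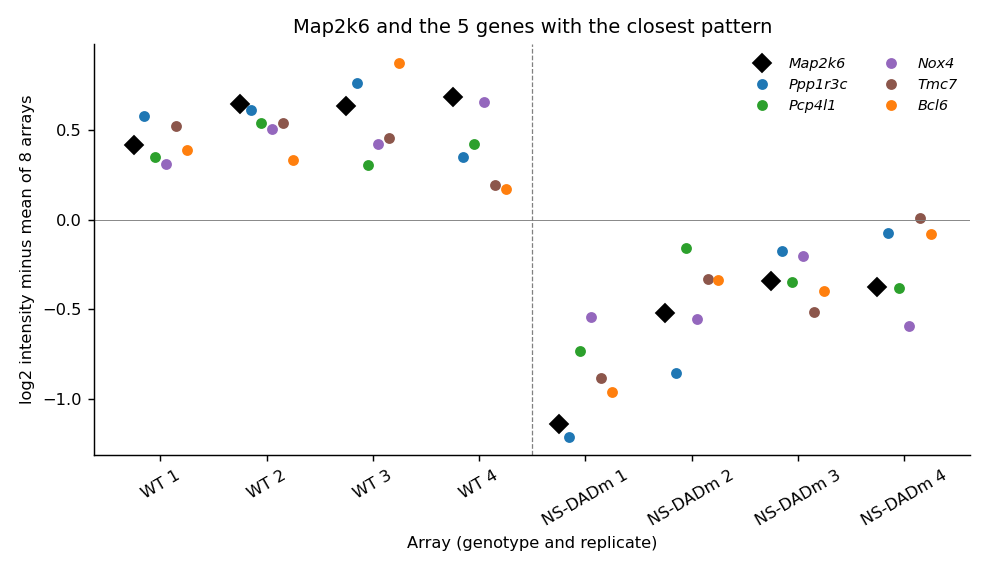
Log2 intensity minus the gene's mean over 8 arrays, for Map2k6 (diamonds) and the 5 genes with the smallest root mean square difference from it (circles), on the 4 WT and 4 NS-DADm arrays. All 6 genes are higher on every WT array than on any NS-DADm array, and 5 of them are lowest on NS-DADm replicate 1, Nox4 being the exception.

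The genes that flank Map2k6 on its chromosome did not show its difference. On one side the 3 nearest measured genes were the ABC transporter genes Abca5, Abca6 and Abca9, with log2 differences of -0.07, -0.11 and -0.24 (-0.10 to -0.02, -0.16 to -0.05 and -0.40 to -0.13 with 1 array left out). On the other side were the potassium channel genes Kcnj16 (-0.17) and Kcnj2 (-0.01) and the gene BC006965 (-0.04). None of the 6 passed limma's test over all genes (adjusted p = 0.454 to 0.995), and 1, Kcnj16, had an unadjusted p under 0.05 (0.0295). The groups overlapped in all 6. Kcnj2 and BC006965 had WT means of 5.76 and 5.60, below the 25th percentile of gene means (6.46). Kcnj16 and Abca9, at 6.80 and 7.57 in WT, were below the median gene mean of 7.59. At low signals a difference could be missed.

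The wider pathway was described with lists that leave out the 10 members. They held 90 measured genes. In limma's test over all genes, 0 of the 90 passed an adjusted p of 0.05 in either direction, beside 0.271% of all genes. At an unadjusted p under 0.05 there were 14 of 90 (15.6%), 6 higher and 8 lower, beside 9.33% of all genes, of which 3.72% were higher and 5.6% lower. With 1 array left out the count ran from 9 (without NS-DADm replicate 1) to 18 (without NS-DADm replicate 4). Quantile normalization gave 19. The share over all genes was not counted in those fits. The median log2 difference of the 90 was -0.0030, against -0.01 over all genes.

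Among 24 kinases and adaptors upstream of p38, 0 passed. Of them 3 (12.5%, beside 9.33% of all genes) had an unadjusted p under 0.05, all lower. Taok2, a kinase that can activate MKK3 and MKK6, had a mean of 9.45 ± 0.02 on WT arrays and 9.13 ± 0.18 on NS-DADm arrays (SD, n = 4 each), with a log2 difference of -0.32 (adjusted p = 0.21), and its groups did not overlap. Gadd45g, a stress-induced activator of MAP3K4, had the largest value above 0, 0.30 (adjusted p = 0.914), with a spread of 0.67 in WT and 0.64 in NS-DADm that was larger than the difference. With 1 array left out it ran from 0.06 (without WT replicate 4) to 0.60 (without WT replicate 1), and leaving out NS-DADm replicate 1 or 2 gave 0.17 or 0.07. The list's median was 0.01, with 15 values above 0 and 9 below.

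Among 19 kinases and substrates downstream of p38, 0 passed. An unadjusted p under 0.05 was reached by 4 (21.1%, beside 9.33% of all genes), 1 higher and 3 lower. Hspb1, the gene of a small heat shock protein phosphorylated by MK2, was at 9.70, 10.26, 9.99 and 9.94 on WT arrays and at 9.02, 9.90, 8.98 and 9.38 on NS-DADm arrays. NS-DADm replicate 2 lay within the WT range and the other 3 NS-DADm arrays below it. The difference was -0.65 (SE 0.19, adjusted p = 0.273). Zfp36, which encodes tristetraprolin, an mRNA decay factor that MK2 phosphorylates, was at 10.35, 10.49, 10.41 and 10.23 on WT arrays and at 9.59, 10.04, 10.09 and 10.15 on NS-DADm arrays. Every NS-DADm value was below every WT value, at a difference of -0.40 (SE 0.11, adjusted p = 0.261).

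The remaining 2 of those 4 genes were named after their values were seen. Elk1, a transcription factor that MAP kinases phosphorylate, had means of 8.77 ± 0.04 on WT and 8.46 ± 0.13 on NS-DADm arrays (log2 difference -0.31, adjusted p = 0.121). Without NS-DADm replicate 4 its difference was -0.37 and it passed (adjusted p = 0.0289). Mapkapk3, which encodes MK3, the close relative of MK2, had means of 7.62 ± 0.12 on WT and 7.91 ± 0.10 on NS-DADm arrays (0.29, adjusted p = 0.202), and its groups did not overlap.

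Of 14 phosphatases and scaffolds that act on p38, 0 passed and 1 (7.14%, beside 9.33% of all genes) had an unadjusted p under 0.05. This was Dusp10, whose product inactivates p38 and JNK, at 7.93, 8.01, 7.93 and 7.998 on WT arrays and at 8.61, 8.13, 8.06 and 8.31 on NS-DADm arrays. All NS-DADm values were above the WT values and replicate 1 was the highest, at a difference of 0.31 (adjusted p = 0.353), or 0.20 without that array. Dusp16, a phosphatase gene of the same group, was at 0.17 (adjusted p = 0.669), or 0.09 without WT replicate 1 and 0.11 without NS-DADm replicate 1.

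In the neighbouring MAP kinase arms, 0 of 8 JNK genes and 0 of 12 ERK genes passed. In turn, 1 (12.5%) and 3 (25%) of them had an unadjusted p under 0.05, beside 9.33% of all genes. In the JNK arm the largest values were those of the transcription factor gene Jun (0.27, adjusted p = 0.472) and the scaffold gene Mapk8ip1 (-0.12, adjusted p = 0.775, and -0.06 without WT replicate 1). In the ERK arm, Spry4, a feedback inhibitor of receptor tyrosine kinase signalling, was at -0.42 (SE 0.13, adjusted p = 0.313). Egr1, an immediate-early transcription factor, was at 7.50, 7.69, 7.77 and 7.19 on WT arrays and at 9.71, 7.99, 7.87 and 7.95 on NS-DADm arrays. Its groups did not overlap, but NS-DADm replicate 1 was far above the rest: the difference was 0.84 (adjusted p = 0.485) with that array and 0.40 without it.

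Of 13 stress and inflammatory early transcripts, several of which p38 signalling is known to raise or stabilise, 0 passed. An unadjusted p under 0.05 was reached by 2 (15.4%, beside 9.33% of all genes), both higher. Those 2, named after their values were seen, were the chemokine gene Ccl2 (0.27, adjusted p = 0.399) and Nfkbiz (0.27, adjusted p = 0.406), which encodes a regulator of NF-kappaB target genes. The largest differences of the list, neither at an unadjusted p under 0.05, were those of the chemokine gene Cxcl1 (0.36, adjusted p = 0.589) and the stress-induced transcription factor gene Atf3 (0.35, adjusted p = 0.63). Both were highest on NS-DADm replicate 1, at 9.02 and 8.30, and without that array the differences were 0.19 and 0.13. Of 8 neutrophil markers, 8 had values above 0, beside 8840 of all 19935 genes. Their mean was 6.25 to 6.42 on WT and 6.37 to 6.56 on NS-DADm arrays. These are low signals, near the 25th percentile of gene means (6.46). The part of neutrophils in the early transcript values was not tested. The 13 early transcripts had a mean of 6.93 to 7.05 on WT and 6.97 to 7.26 on NS-DADm arrays. Those means lay below the median gene mean of 7.59, and RMA values can compress differences at low signals.

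**Figure D5:**
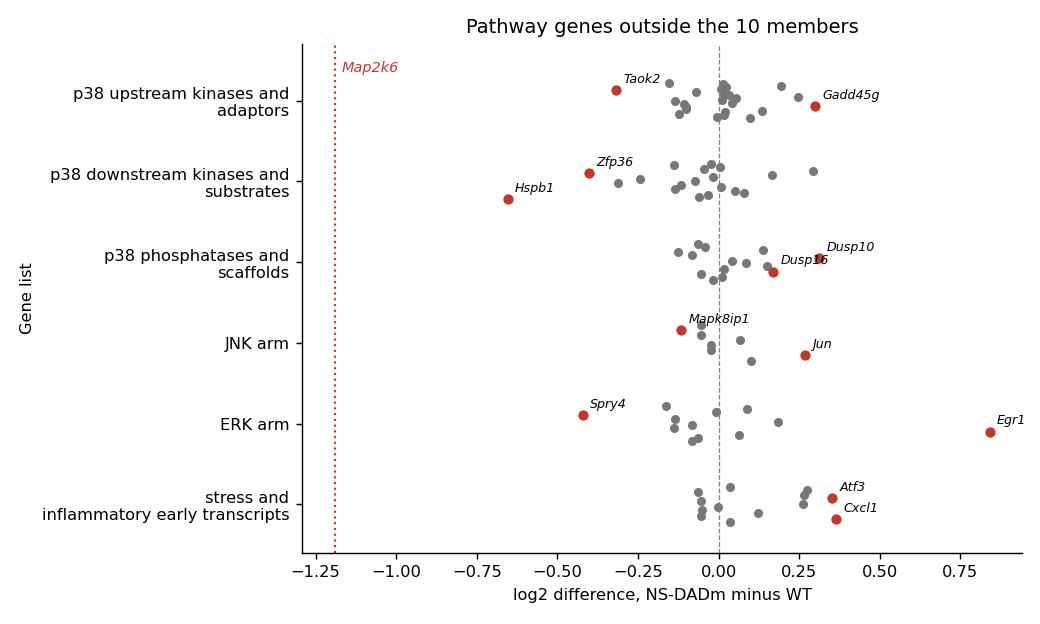
Log2 difference, NS-DADm minus WT, of the 90 measured pathway genes outside the 10 members, 1 point a gene, by list; coloured points carry the gene's name, and the dotted line marks Map2k6 at -1.19. The differences run from -0.65 (Hspb1) to 0.84 (Egr1), and none of these genes passed the test over all genes.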

How the data were processed

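RNA of 8 liver samples was hybridised to 1 Affymetrix array each. The values are log2 intensities per probe set as deposited by the authors; the scale was read from the values, which run from 3.43 to 14.37. The tools were RMA and Partek, per the submitters' processing notes, and their versions were not given in the sources used here. Of 28270 probe sets 21780 named 1 gene, 1617 several and 4873 none; only the first entered. Symbols were updated by Entrez identifier through a RefSeq table on GRCm38.p6 (19852 of 19935 genes matched), and the probe set with the highest mean stood for a gene. Sample titles gave the group and the replicate number. No low-value filter, pseudocount or batch term was applied.

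The comparison of genotypes used R 4.3.3 and limma 3.58.1 (lmFit, eBayes, two-sided, Benjamini-Hochberg over all genes, threshold 0.05) on all 8 arrays, and the steps were tested on simulated data. SEs and 95% intervals come from that fit. Precision is limited by the number of arrays. The members and lists were chosen with earlier results of these data known. Named were all members, of each pathway list the genes past the threshold or else the 2 largest absolute differences, the 5 genes closest to Map2k6 (predicted and clone names left out) and the 3 nearest measured genes on each side of it. Alternatives were the mean of a gene's probe sets, filters at the median and the 25th percentile of gene means, quantile normalization, median subtraction, array weights, a replicate block, trended with robust variances, and each array left out. The corepressor genes' own transcripts are not reported here.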

Additional observations from a re-analysis of the deposited data

Results flagged for a closer look

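For 33 genes (the members, the genes closest to Map2k6, its neighbours and the pathway genes named by rule), 66 groups of 4 arrays were searched for a single array far from the rest, and 2 were found, where chance gives about 1 in 20 groups. Egr1 was at 9.71 on NS-DADm replicate 1, against 7.87 to 7.99 on the other 3 NS-DADm arrays. Nox4 was at 9.44 on NS-DADm replicate 3, against 9.05 to 9.10 on the other 3.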

How the results depend on the processing

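Of the 8 processing alternatives, only quantile normalization, median subtraction and array weights could change the log2 difference of Map2k6. They gave -1.183, -1.185 and -1.186. The others leave its value as it is, because Map2k6 has 1 probe set and passes both filters. Variance settings and a balanced block do not alter a difference of means. With 1 array left out, the difference ran from -1.27 to -1.01. The count of genes that passed over all genes, 54, was 109 with array weights, 105 with the replicate block, and 13 (without WT replicate 2) to 126 (without NS-DADm replicate 4) with 1 array left out. The count of pathway genes that passed, 0, was 1 with array weights (Elk1, adjusted p = 0.0498), 1 with the replicate block (Hspb1, adjusted p = 0.0337) and 0 to 1 with 1 array left out. Whether the replicate numbers pair the samples was not settled. Same-numbered arrays deviated from their group means with correlations of 0.15, 0.05, -0.10 and 0.25 over genes. Of 4 NS-DADm arrays, 2 correlated best with their own number. The block also took Ppp1r3c past the threshold (adjusted p = 0.0421). Values near 0 changed sign for Kcnj2 (0.027 with array weights, -0.075 to 0.028 with 1 array left out) and BC006965 (-0.10 to 0.012 with 1 array left out), and among members for Map2k3, Mapk11, Mapk12 and Dusp1, by less than their spread between arrays. Mapk11 and Mapk13 have no value under the filter at the median level. Signal over background could not be judged.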
